A study of Mus musculus with 36 samples.

Results

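Bmp10, Hamp, Dkk3 and Cilp2 are 4 genes of the mouse heart that code for secreted proteins and are not part of the sarcomere. They were selected on measured values of these data, as genes with the highest weights on the axis that separates left ventricle from atria, and they make up 4 of the 55291 gene symbols in the tables and 4 of the 19231 genes that had enough reads to be tested. All 4 were found at high levels in atria and at low levels in ventricle. That difference was used to choose them and is given as a description only. The question asked of them was whether expanded CUG repeat RNA, or MBNL supplied on top of it, shifted their level within a chamber.

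The 4 proteins belong to different pathways. Bmp10 is a ligand of the bone morphogenetic protein (BMP) family, made in the heart and known for its role in trabecular growth of the embryonic ventricle, and in the adult it is made by atrial cardiomyocytes and circulates as a ligand of the receptor Acvrl1 on endothelial cells. Hamp codes for hepcidin, the hormone that binds the iron exporter ferroportin (Slc40a1) and so keeps iron inside cells. The liver is its main source, where BMP and Smad signalling and the interleukin 6 and STAT3 route switch it on. Dkk3 is the divergent member of the Dickkopf family of Wnt regulators, and Cilp2 is a matrix protein first known from the intermediate layer of cartilage.

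RNA was taken from left ventricle and atria of CUG960 mice at 21 weeks of age, with 3 animals in each of 6 cohorts and 36 libraries in all. Per the study's list of samples, both chambers came from the same 18 mice. All mice were TREDT960I (Hom)/MHCrtTA (Hem), so every cohort, controls included, carried the transgene of interrupted CTG repeats in human DMPK together with a doxycycline-dependent activator that the α-MHC promoter drives in cardiomyocytes. In the +dox cohort dox was given from postnatal day 1 to the end and the repeat RNA was on, in the -dox cohort no dox was given, and in the +/-dox cohort dox was withdrawn at 9 weeks. The MBNL1, MBNL2 and MBNL1+MBNL2 cohorts remained on dox and received AAV9 at 9 weeks for human MBNL1, MBNL2 or both under the human TNNT2 promoter. They were compared here with +dox mice that received no vector, so an effect of the vector itself and an effect of MBNL cannot be told apart. The +dox and MBNL cohorts were on dox at the end, and no sequenced cohort received dox without the repeat transgene. An effect of dox itself and an effect of the repeat RNA therefore cannot be told apart either.

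The libraries held 55031987 to 97091184 expected counts each. Xist stood above 10 TPM (a share of all transcripts, corrected for transcript length and depth) in 10 libraries, between 13.6 and 41.2 TPM, and at 0.15 TPM or less in the other 26. Those 10 libraries were replicate 3 of every cohort except MBNL1+MBNL2 in both chambers. The same replicate 3 libraries, and all of MBNL1+MBNL2, have names that begin with 56, while the others begin with 53, so sex and library set cannot be told apart in most cohorts. The ventricular library of MBNL1 replicate 1 stood apart, with 16885 genes above 0 against 20578 to 24041 in the other 35. The summed level of 6 atrial markers was 39948 to 61590 TPM in atria and 128 to 1040 TPM in ventricle, and that of 4 ventricular markers was 19779.5 to 27746 TPM in ventricle and 40.0 to 806 TPM in atria, so both tissues matched their labels. Libraries of bulk tissue do not tell fewer cells of a kind from less RNA per cell.

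In the 18 atrial libraries Bmp10 ranged from 413 to 648 TPM, Dkk3 from 457 to 569 TPM, Hamp from 187 to 725 TPM and Cilp2 from 26.0 to 80.9 TPM. In the 18 ventricular libraries the ranges were 0.45 to 2.73 TPM for Bmp10, 0.43 to 2.73 TPM for Hamp, 1.15 to 23.7 TPM for Dkk3 and 0.06 to 1.53 TPM for Cilp2. The chambers did not overlap for any of the 4, and the gap between the lowest atrial and the highest ventricular library was smallest for Cilp2, at 17.0-fold, and for Dkk3, at 19.3-fold. It was 68.6-fold for Hamp and 151-fold for Bmp10. The ratio of the atrial to the ventricular mean was 429 for Bmp10, 293 for Hamp, 117 for Cilp2 and 65.0 for Dkk3. On the first principal component of the 500 most variable genes, which took up 75.1% of their variance, Bmp10 had the highest weight of all, Hamp ranked 6, Cilp2 ranked 10 and Dkk3 ranked 33 by size of weight.

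**Figure D1:**
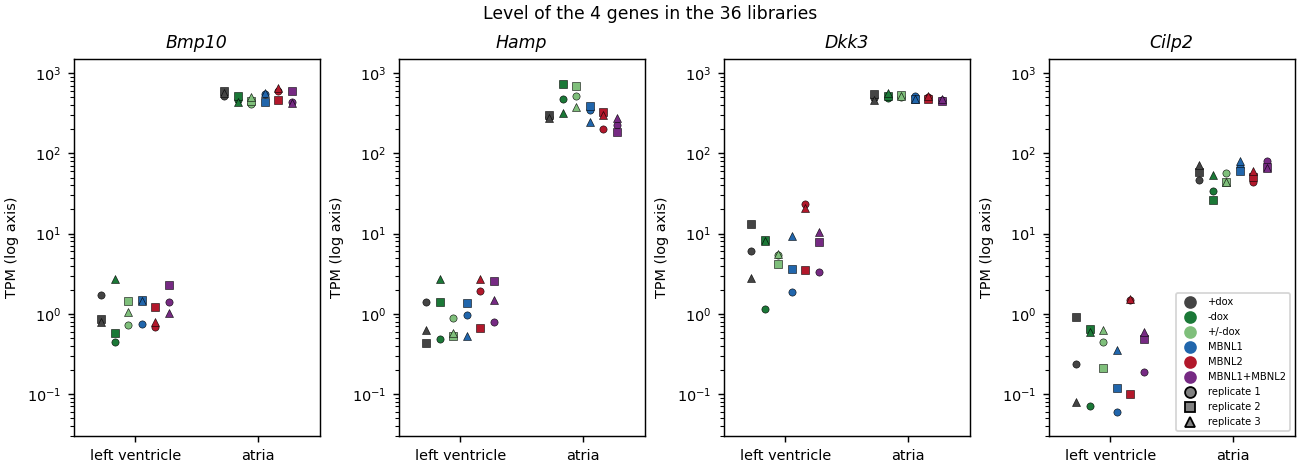
Level of Bmp10, Hamp, Dkk3 and Cilp2 in TPM on a log axis, with each point 1 library, colour for cohort and shape for replicate number. Atrial and ventricular libraries do not overlap for any of the 4 genes, and the ventricular points of Dkk3 and Cilp2 spread over 20.6-fold and 25.5-fold.

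The depth behind these levels differed widely between the chambers. Hamp, a short transcript, was counted 1718 to 6682 times in an atrial library and only 5 to 28 times in a ventricular one. Bmp10 and Dkk3 were counted at least 58533 times in every atrial library. Within cohorts the SD of log2 CPM (counts scaled to library size) in atria was 0.10 for Dkk3, 0.19 for Bmp10, 0.25 for Cilp2 and 0.39 for Hamp. In ventricle it was 0.73 for Bmp10, 0.76 for Hamp, 1.16 for Dkk3 and 1.50 for Cilp2. A joint fit of all libraries gives each gene 1 spread for both chambers, and its dispersion for Dkk3 was 0.256 against 0.00621 in a fit of the 18 atrial libraries alone. For that reason atrial results are given from the joint fit, which was the main test, and beside it from the atrial fit where the 2 differ.

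Hamp lies on chromosome 7 of GRCm38 at 30942368-30944032 on the minus strand, with 3 exons, and its paralog Hamp2 lies 17686 bases away on the same strand. A noncoding gene on the opposite strand, Gm44662, spans both, shares no exonic base with Hamp and 89 with Hamp2, and is listed at 0 TPM in all 36 libraries. The Hamp and Hamp2 transcripts of 410 and 437 bases share 3.87% of the 75-base words of Hamp and none of its 100-base words. The study sequenced paired reads of 150 bases, and no 150-base word of Hamp is shared with Hamp2. Any reads that still match both are divided by the quantification, so values of the pair, and above all of the rarer Hamp2, are uncertain to that extent. Bmp10 (chromosome 6, 87428994-87437677, plus strand, 2 exons), Dkk3 (chromosome 7, 112116017-112159057, minus strand, 8 exons) and Cilp2 (chromosome 8, 69880369-69887687, minus strand, 8 exons) overlap no other annotated gene.

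Hamp and its paralog Hamp2 were both called in the atria (values follow), and their promoters, from 250 bases before to 50 bases after the start site in RefSeq on GRCm38.p6, are shown because they are nearly the same. With a shift of 3 bases, 276 of 297 bases, or 92.9%, were identical. Capitals mark matches on either strand to GGCGCC, the core of the BMP response element of hepcidin genes, to TTCNNNGAA, the STAT motif, and to AGATAA, the GATA motif. Hamp spans chr7:30943980-30944279 and Hamp2 spans chr7:30924132-30924431, both on the minus strand.
Hamp: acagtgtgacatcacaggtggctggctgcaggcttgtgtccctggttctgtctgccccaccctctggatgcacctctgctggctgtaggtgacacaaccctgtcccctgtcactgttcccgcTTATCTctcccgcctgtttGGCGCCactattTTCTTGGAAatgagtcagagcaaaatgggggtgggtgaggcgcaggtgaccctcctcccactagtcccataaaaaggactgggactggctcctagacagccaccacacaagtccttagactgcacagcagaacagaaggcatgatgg
Hamp2: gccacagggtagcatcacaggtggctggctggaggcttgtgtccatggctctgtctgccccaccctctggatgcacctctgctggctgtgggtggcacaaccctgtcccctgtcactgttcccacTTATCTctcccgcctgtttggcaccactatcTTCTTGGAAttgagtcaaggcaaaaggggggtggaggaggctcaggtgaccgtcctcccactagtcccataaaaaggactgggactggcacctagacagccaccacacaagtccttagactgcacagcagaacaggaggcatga
The Hamp promoter held all 3 motifs, with GGCGCC starting at -109, the STAT match at -97 and the GATA match, read on the other strand, at -128. In the Hamp2 promoter the STAT match was found at -94 and the GATA match at -125, and no GGCGCC was found. Among the 32851 promoters of the same length, GGCGCC was found in 11.9%, TTCNNNGAA in 8.3% and AGATAA in 11.2%. The Cilp2 promoter held 1 GGCGCC, at -212, and the Bmp10 promoter held 2 AGATAA, at -219 and -33. These matches describe the letters of the windows only.

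In the atria, Hamp was higher in both cohorts without dox, and so without the repeat RNA, at the end of the study than in +dox mice. Hamp stood at 288, 297 and 278 TPM in the 3 +dox libraries. It stood at 474, 725 and 317.5 TPM in the -dox libraries. In the +/-dox libraries it stood at 524, 693 and 381 TPM. Every library of these 2 cohorts lay above every +dox library, and in both the third replicate was the lowest. The share of all genes whose libraries separate in this way was not computed. Such separation is therefore given, here and below, as a description only. The log2 fold change against +dox was 0.86 (SE 0.29, edgeR adjusted p = 0.0446) in -dox mice and 1.00 (SE 0.29, edgeR adjusted p = 0.0241) in +/-dox mice.

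Among the 4 genes, Hamp was the only one called by the joint fit in these comparisons, at an adjusted p below 0.05 and a change of at least 1.5-fold. Thus 1 of 4 genes was called higher and none lower in -dox atria, where 2.83% of all genes tested were called higher and 2.4% lower. The same count was found in +/-dox atria, where 2.01% of all genes were called higher and 1.98% lower. The other 3 genes had log2 fold changes between -0.59 and 0.10 in these comparisons in the joint fit. The atrial fit called Cilp2 lower in -dox atria and did not call Hamp there, as given below.

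These calls rested on few libraries. The log2 fold change of Hamp against +dox stayed between 0.50 and 1.12 in -dox mice and between 0.74 and 1.20 in +/-dox mice when a single library was left out, with no change of direction. Both calls were lost without any 1 of the +dox libraries or without replicate 1 of +/-dox. The -dox call was also lost without -dox replicate 1 (0.90, edgeR adjusted p = 0.0774) or 2 (0.50, edgeR adjusted p = 0.318) and without some single libraries of the MBNL cohorts, and the +/-dox call without +/-dox replicate 2 (0.74, edgeR adjusted p = 0.162). DESeq2 gave adjusted p = 0.126 in -dox and adjusted p = 0.0823 in +/-dox mice, and the fit of atrial libraries called +/-dox (log2 fold change 0.98, edgeR adjusted p = 0.047), where 2.61% of genes were called higher, but not -dox (0.85, edgeR adjusted p = 0.0704). Within the libraries whose names begin with 53, the log2 ratio to +dox was 1.09 in -dox and 1.17 in +/-dox mice, and with 1 library on each side within those that begin with 56 it was 0.22 and 0.57.

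In the MBNL cohorts Hamp was not called against +dox. It stood at 349, 394 and 243 TPM in the MBNL1 libraries, at 202, 324 and 299 TPM in the MBNL2 libraries and at 227, 187 and 273 TPM in the MBNL1+MBNL2 libraries. The 3 MBNL1 libraries straddled the +dox range, as did the MBNL2 libraries, while all 3 MBNL1+MBNL2 libraries lay below it. The names of the MBNL1+MBNL2 libraries all begin with 56, and their log2 ratio to the 1 such +dox library was -0.21. Against +dox the log2 fold changes were 0.21 (SE 0.29) in MBNL1, -0.03 (SE 0.29) in MBNL2 and -0.27 (SE 0.29) in MBNL1+MBNL2 mice. In these 3 comparisons none of the 4 genes was called, with 0.13%, 0.0052% and 0.26% of all genes called in MBNL1, MBNL2 and MBNL1+MBNL2 atria.

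In +/-dox mice dox, and with it the repeat RNA, was stopped at the age when vector was given. Set against these mice, Hamp was lower in 2 of the 3 MBNL cohorts. The log2 fold change was -1.03 (SE 0.29, edgeR adjusted p = 0.023) in MBNL2 and -1.27 (SE 0.30, edgeR adjusted p = 0.00867) in MBNL1+MBNL2 mice, and the libraries did not overlap in either. Within library names that begin with 53 the log2 ratio for MBNL2 was -1.31, and with 1 library on each side within those that begin with 56 it was -0.38. For MBNL1+MBNL2, whose libraries all begin with 56, it was -0.77 against the 1 such +/-dox library. That +/-dox library held 41.2 TPM of Xist and the MBNL1+MBNL2 libraries 0.08 to 0.09 TPM, so sex and cohort cannot be told apart there. In MBNL1 mice the log2 fold change was -0.79 (SE 0.29, edgeR adjusted p = 0.130), with libraries that overlapped. Between -dox and +/-dox mice it was -0.14 (SE 0.29). Hamp was the 1 of 4 genes called in the MBNL2 and MBNL1+MBNL2 comparisons, where 3.24% and 1.71% of all genes were called, and no gene of the 4 was called in MBNL1, with 1.21%, or in -dox, with 0.0104%. Without replicate 2 of +/-dox neither was called (log2 fold changes of -0.77 and -1.01). The MBNL2 call was also lost without MBNL2 replicate 1 (-0.85) or +/-dox replicate 1 (-1.04), and the MBNL1+MBNL2 call without MBNL1+MBNL2 replicate 2 (-1.15). DESeq2 called MBNL1+MBNL2 (adjusted p = 0.0284) but not MBNL2 (adjusted p = 0.0747). The comparisons with +dox and with +/-dox share their libraries and are not independent.

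In order of the atrial mean, Hamp was at 533 ± 156 TPM (SD, n = 3) in +/-dox, 505 ± 205 in -dox, 329 ± 77.6 in MBNL1, 288 ± 9.87 in +dox, 275 ± 64.3 in MBNL2 and 229 ± 43.0 in MBNL1+MBNL2 mice. Each cohort overlapped the next in this order.

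**Figure D2:**
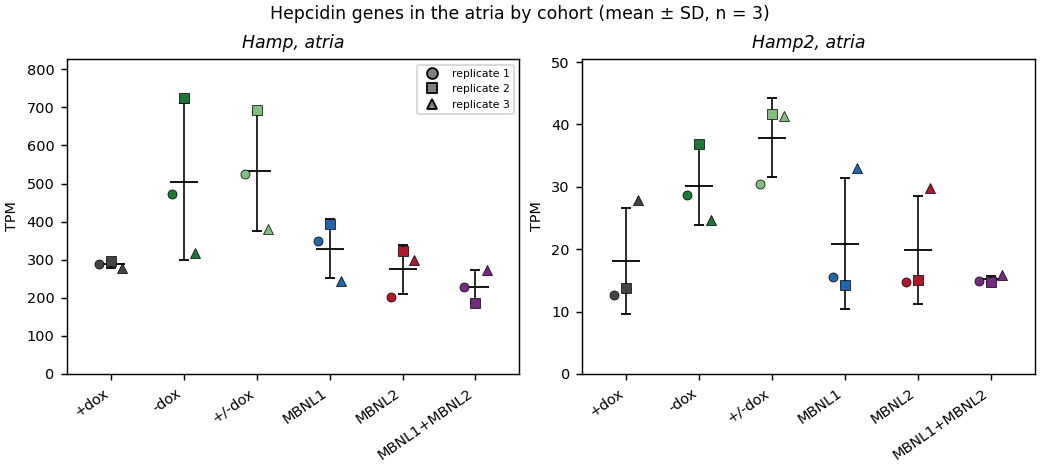
Hamp (left) and Hamp2 (right) in the atria, in TPM from 0, by cohort. Points are libraries with shape for replicate number, and bars show the mean ± SD of 3 libraries. Hamp in -dox and +/-dox atria lies above the +dox libraries, which sit between 278 and 297 TPM.

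Sums of marker genes also differed between the atrial cohorts. Of the atrial, ventricular, mesothelial and fibroblast markers, none was called in -dox or +/-dox atria against +dox in the joint fit. The summed level of the 6 atrial markers (Myl7, Myl4, Sln, Nppa, Nr2f2 and Kcnj3) was 39948 to 43045 TPM in +dox, 54176 to 57649 TPM in -dox, 55692 to 60543 TPM in +/-dox, 47410 to 51918 TPM in MBNL1, 41231 to 50351 TPM in MBNL2 and 44063 to 61590 TPM in MBNL1+MBNL2 atria. Nppa, the atrial natriuretic peptide, made up much of it. Its level went from 19024 ± 1065 TPM in +dox to 32602 ± 2470 in -dox and 32862 ± 1977 in +/-dox atria. The joint fit did not call it (log2 fold changes 0.81 and 0.86, SE 0.50 each, edgeR adjusted p = 0.301 and 0.299). That fit uses a spread shared by both chambers, so a marker not called in it was not shown to be unchanged in atria. In MBNL1+MBNL2 atria, whose libraries all have names that begin with 56, the marker sum was above that of +dox in every library. The 4 mesothelial markers summed to 15.1 to 52.2 TPM in +dox, 55.8 to 94.3 TPM in -dox and 25.4 to 61.4 TPM in +/-dox atria, the 4 fibroblast markers to 929 to 1144 TPM, 1256 to 1298 TPM and 1093 to 1263 TPM, and the 4 ventricular markers to 66.9 to 106 TPM, 43.2 to 806 TPM and 110 to 395 TPM. The part of these differences in the Hamp result was not tested. The 5 liver markers summed to 0.69 to 2.84 TPM in atria, with Alb between 0 and 0.24 TPM.

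Hamp2 was far below Hamp and rose with it in +/-dox atria. It stood at 12.7, 13.8 and 27.9 TPM in the +dox libraries and at 30.5, 41.6 and 41.4 TPM in the +/-dox libraries. The log2 fold change was 1.18 (SE 0.36, edgeR adjusted p = 0.0273). In -dox mice it stood at 28.7, 37.0 and 24.7 TPM, which overlapped +dox (log2 fold change 0.79, SE 0.36, edgeR adjusted p = 0.139). In the +dox, MBNL1 and MBNL2 cohorts replicate 3 held more Hamp2 (27.9, 33.0 and 29.8 TPM) than replicates 1 and 2, which held 12.7 to 15.5 TPM. In MBNL1+MBNL2 mice, with no library above 10 TPM of Xist, all 3 were between 14.8 and 15.8 TPM, and against +/-dox Hamp2 was lower there (log2 fold change -1.37, SE 0.36, edgeR adjusted p = 0.0183).

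Of 21 tested genes of iron handling, few others were called against +dox. In -dox atria 1 rose and none fell, namely Heph, a ferroxidase that works with ferroportin (1.94 ± 0.30 to 3.03 ± 0.18 TPM, log2 fold change 0.68, edgeR adjusted p = 0.00213). In +/-dox atria Hamp2 was the 1 gene that rose, and none fell. In ventricle Slc39a14, an importer of metal ions, rose in -dox mice (15.2 ± 0.60 to 23.9 ± 1.71 TPM, log2 fold change 0.69, edgeR adjusted p = 1.69e-05), where 3.47% of all genes were called higher and 4.13% lower, and no gene of the list was called in the other 4 ventricular comparisons or in the atria of MBNL mice. Slc40a1, the target of hepcidin, was at 5.63 to 11.8 TPM in atria, with log2 fold changes of 0.44 (edgeR adjusted p = 0.0725) in -dox and 0.29 (edgeR adjusted p = 0.285) in +/-dox mice. In ventricle, at 3.36 to 6.16 TPM, its log2 fold changes of 0.55 (edgeR adjusted p = 0.019) and 0.49 (edgeR adjusted p = 0.0378) passed the adjusted p but not the fold limit. Hjv, the BMP co-receptor needed for hepcidin in liver, was at 168 to 264.5 TPM in atria and lower in both cohorts by less than the fold limit, with log2 fold changes of -0.50 (edgeR adjusted p = 1.02e-05) and -0.37 (edgeR adjusted p = 0.000723). Against +dox the median log2 fold change of the list was 0.08 in -dox and 0.05 in +/-dox atria, beside 0.03 for all genes in both.

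Cilp2 was lower in -dox than in +dox atria, and the call of this difference depended on the fit. It stood at 46.7, 58.3 and 71.6 TPM in the +dox libraries, at 34.3, 26.0 and 54.5 TPM in the -dox libraries and at 57.4, 44.2 and 43.7 TPM in the +/-dox libraries. The -dox libraries reached into the +dox range with replicate 3, and the +/-dox libraries overlapped it. In the joint fit the log2 fold change in -dox mice was -0.59 (SE 0.57, edgeR adjusted p = 0.542) and was not called. In the fit of the 18 atrial libraries it was -0.61 (SE 0.19, edgeR adjusted p = 0.0365) and was called, along with 3.51% of genes called lower there. In +/-dox mice the atrial fit gave -0.23 (SE 0.19, edgeR adjusted p = 0.456). The summed levels of mesothelial and of fibroblast markers given beside Hamp were also higher in every -dox than in every +dox library, with no marker called in the joint fit, and their part in the Cilp2 difference was not tested.

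In the MBNL cohorts Cilp2 stood at 68.1, 61.2 and 80.9 TPM (MBNL1), 44.4, 50.6 and 61.1 TPM (MBNL2) and 80.1, 68.0 and 65.3 TPM (MBNL1+MBNL2). All MBNL1 and all MBNL1+MBNL2 libraries lay above all +/-dox libraries, with log2 fold changes in the atrial fit of 0.46 (SE 0.19, edgeR adjusted p = 0.179) and 0.46 (SE 0.19, edgeR adjusted p = 0.151), neither of which was called. In order of the atrial mean, Cilp2 was at 71.1 ± 7.86 TPM in MBNL1+MBNL2, 70.0 ± 9.98 in MBNL1, 58.9 ± 12.5 in +dox, 52.0 ± 8.43 in MBNL2, 48.5 ± 7.78 in +/-dox and 38.3 ± 14.6 in -dox mice, each overlapping the next.

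Of 17 tested genes of cartilage and related matrix, Thbs3, a thrombospondin, rose in -dox atria (6.15 ± 0.83 to 9.43 ± 2.08 TPM, log2 fold change 0.64, edgeR adjusted p = 0.0308) and none fell. In ventricle Ogn, the small proteoglycan osteoglycin, fell in -dox mice (111 ± 14.2 to 63.4 ± 9.51 TPM, log2 fold change -0.76, edgeR adjusted p = 7.18e-06) and in +/-dox mice (to 72.8 ± 1.39 TPM, log2 fold change -0.59, edgeR adjusted p = 0.000206), and none rose. In +/-dox ventricle 3.09% of all genes were called higher and 3.52% lower. Cilp, the paralog of Cilp2, was higher on average in ventricle, at 0.79 to 7.82 TPM in ventricle and 0.07 to 0.95 TPM in atria, and was not called in any comparison with +dox. The list's median log2 fold change was 0.41 in -dox and 0.27 in +/-dox atria and -0.44 and -0.57 in ventricle of the same cohorts, beside medians between 0.00 and 0.03 for all genes.

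Dkk3 was the most even of the 4 in atria. It stood at 491, 551 and 464 TPM in +dox, 492, 519 and 569 TPM in -dox and 504, 528 and 520 TPM in +/-dox libraries. It stood at 514, 482 and 481 TPM in MBNL1, 507, 479 and 526 TPM in MBNL2 and 458, 457 and 471 TPM in MBNL1+MBNL2 libraries. Only the last cohort stood apart from a neighbour in the order of means, since all its libraries lay below those of MBNL1, the next above it. The order of means was 527 ± 39.1 TPM in -dox, 517 ± 11.8 in +/-dox, 504 ± 23.4 in MBNL2, 502 ± 44.7 in +dox, 492 ± 18.7 in MBNL1 and 462 ± 7.75 in MBNL1+MBNL2 mice. Against +dox the atrial fit gave log2 fold changes of 0.08, 0.08, -0.05, 0.04 and -0.17 for -dox, +/-dox, MBNL1, MBNL2 and MBNL1+MBNL2 (SE 0.08 each), and none was called. Against +/-dox, MBNL1+MBNL2 mice had a log2 fold change of -0.26 (SE 0.08, edgeR adjusted p = 0.0401) in that fit, which is below the 1.5-fold limit, and of -0.28 (SE 0.59, edgeR adjusted p = 0.860) in the joint fit. All MBNL1+MBNL2 libraries have names that begin with 56. Their log2 ratio to the 1 such library of each cohort was 0.03 for +dox and -0.21 for +/-dox. Those +dox and +/-dox libraries had Xist above 10 TPM, unlike the MBNL1+MBNL2 libraries.

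Of 18 tested genes of the Dickkopf and Wnt list, Wif1, a secreted Wnt inhibitor, fell in atria of -dox mice (2.37 ± 0.87 to 0.72 ± 0.68 TPM, log2 fold change -1.76, edgeR adjusted p = 0.0386) and of +/-dox mice (to 0.52 ± 0.13 TPM, log2 fold change -2.18, edgeR adjusted p = 0.0181). Axin2, a standard target gene of Wnt signalling, rose in +/-dox atria (4.49 ± 1.00 to 6.71 ± 0.67 TPM, log2 fold change 0.60, edgeR adjusted p = 0.00255). In ventricle the secreted Wnt modulator Sfrp2 fell in -dox (log2 fold change -1.58, edgeR adjusted p = 0.0197) and in +/-dox mice (-1.76, edgeR adjusted p = 0.00979), Sfrp5 rose in +/-dox mice (1.74, edgeR adjusted p = 0.00901), and Nkd1, a Wnt feedback inhibitor, rose in MBNL2 mice (0.84, edgeR adjusted p = 0.0464). Ventricular levels were low, at 0.38 to 2.81 TPM for Sfrp2, 0.07 to 1.21 TPM for Sfrp5 and 0.49 to 1.54 TPM for Nkd1. In MBNL2 atria, set against +/-dox, Axin2 (-0.72, edgeR adjusted p = 0.000545) and Sfrp5 (-1.08, edgeR adjusted p = 0.0472) were lower and Wif1 higher (1.94, edgeR adjusted p = 0.0404). Axin2 was also lower in MBNL1+MBNL2 atria (-0.59, edgeR adjusted p = 0.00557), and Sfrp2 was higher in MBNL2 ventricle (1.95, edgeR adjusted p = 0.0172), with no other call of the list against +/-dox. The other Dickkopf genes were near 0. Dkk1, Dkk4 and Dkkl1 reached at most 0.02, 0.06 and 0.14 TPM in any library and were not tested, and Dkk2 reached 0.13 TPM.

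Bmp10 in atria stood at 517, 599 and 565 TPM in +dox, 469, 524 and 443 TPM in -dox and 413, 449 and 503 TPM in +/-dox libraries. All 3 +/-dox libraries lay below all 3 +dox libraries, while -dox overlapped +dox by replicate 2. Bmp10 stood at 545, 433 and 575 TPM in MBNL1, 598, 457 and 648 TPM in MBNL2 and 433, 601 and 421 TPM in MBNL1+MBNL2 libraries, all of which overlapped +dox. In the atrial fit the log2 fold changes against +dox were -0.20 in -dox, -0.26 in +/-dox, -0.14 in MBNL1, 0.05 in MBNL2 and -0.26 in MBNL1+MBNL2 mice (SE 0.14 each), with edgeR adjusted p from 0.228 upward, and the joint fit gave the same direction with SE 0.39. In order of the atrial mean, Bmp10 was at 568 ± 99.1 TPM in MBNL2, 560 ± 41.4 in +dox, 517 ± 74.6 in MBNL1, 485 ± 101 in MBNL1+MBNL2, 479 ± 41.1 in -dox and 455 ± 45.0 in +/-dox mice, each overlapping the next.

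**Figure D3:**
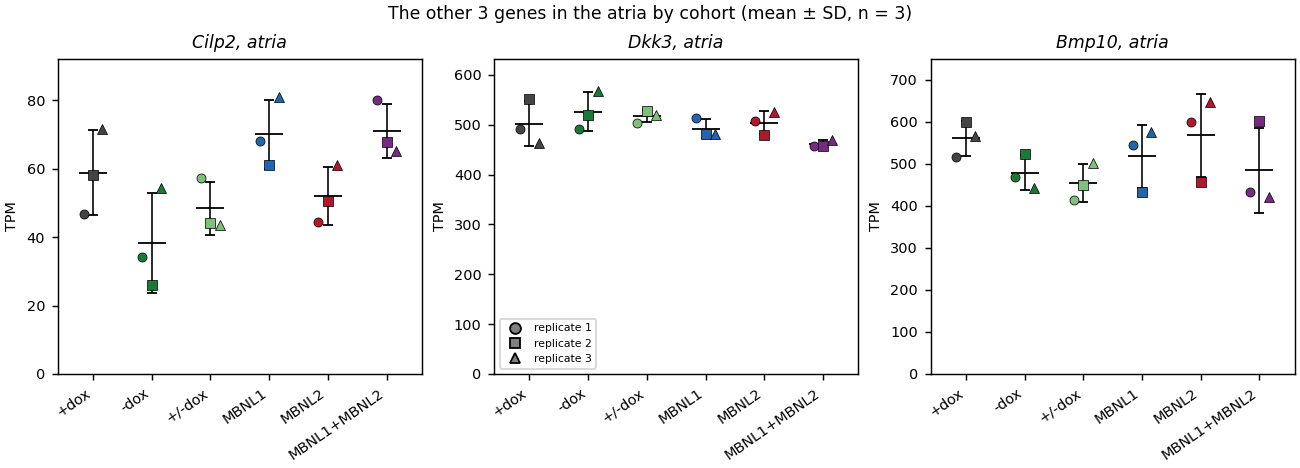
Cilp2, Dkk3 and Bmp10 in the atria, in TPM from 0, by cohort. Points are libraries with shape for replicate number, and bars show the mean ± SD of 3 libraries. Cilp2 is lowest in -dox atria, at 38.3 ± 14.6 TPM, while Dkk3 keeps within 457 to 569 TPM in all 18 libraries.

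**Figure D4:**
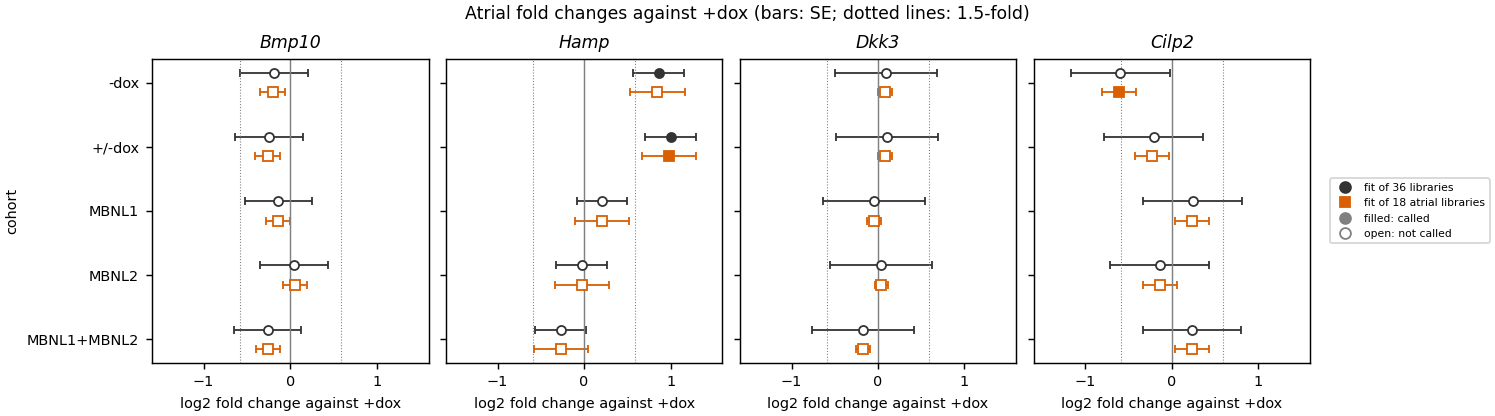
Log2 fold change of each gene against +dox in the atria, with bars for the SE, from the fit of 36 libraries (circles) and the fit of 18 atrial libraries (squares). Filled symbols were called: Hamp in -dox and +/-dox mice in the joint fit, and Hamp in +/-dox and Cilp2 in -dox mice in the atrial fit.

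Of 29 tested genes of the BMP pathway, the ligand Bmp5 fell in atria of -dox mice (10.8 ± 0.79 to 4.42 ± 0.61 TPM, log2 fold change -1.25, edgeR adjusted p = 1.22e-06) and of +/-dox mice (to 6.45 ± 1.21 TPM, log2 fold change -0.68, edgeR adjusted p = 0.00338). Chrd, the secreted BMP antagonist chordin, rose in -dox atria (1.35 ± 0.23 to 2.50 ± 0.34 TPM, log2 fold change 0.91, edgeR adjusted p = 0.00488). In ventricle Chrd rose in -dox (log2 fold change 0.69, edgeR adjusted p = 0.0307), +/-dox (0.77, edgeR adjusted p = 0.0142) and MBNL1+MBNL2 mice (0.91, edgeR adjusted p = 0.0106), the inhibitory Smad7 rose in -dox (0.66, edgeR adjusted p = 0.000576) and MBNL2 mice (0.60, edgeR adjusted p = 0.00711), the co-receptor Eng rose in MBNL2 mice (0.61, edgeR adjusted p = 0.00304), and Id4 fell by 1.00 on the log2 scale in +/-dox mice (edgeR adjusted p = 0.0429). No gene of the list was called in MBNL1 ventricle, where 1.14% of all genes were called higher and 1.51% lower. In MBNL2 ventricle 2 of 29 rose, beside 0.77% of all genes higher and 0.749% lower, and in MBNL1+MBNL2 ventricle 1 of 29 rose, beside 1.04% higher and 1.61% lower. Against +/-dox, the receptor Bmpr1b was lower in MBNL1 atria (-2.43, edgeR adjusted p = 0.0434) and Id4 higher in MBNL2 ventricle (1.43, edgeR adjusted p = 0.015), with no other call of the list. Both were at low levels, with Bmpr1b at 0.01 to 0.19 TPM in atria and Id4 at 0.08 to 0.57 TPM in ventricle. The direct target Id1 had log2 fold changes of 0.15 (edgeR adjusted p = 0.666) in -dox and -0.03 (edgeR adjusted p = 0.960) in +/-dox atria.

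The ligand nearest to Bmp10, Gdf2 (BMP9), was at 0.05 to 0.76 TPM in atria and at most 0.04 TPM in ventricle. Among 5 transcription factors of the heart listed as upstream of Bmp10, Tbx5 (106 TPM in atria and 10.6 TPM in ventricle on average) and Tbx20 (95.2 and 29.9 TPM) had the widest chamber difference, followed by Myocd (28.0 and 15.7 TPM), Nkx2-5 (61.7 and 36.6 TPM) and Gata4 (62.3 and 48.3 TPM). None of the 5 was called in any comparison with +dox. Tbx20 was lower in ventricle of -dox (log2 fold change -0.51, edgeR adjusted p = 1.04e-05) and +/-dox mice (-0.39, edgeR adjusted p = 0.000359), below the fold limit.

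In ventricle none of the 20 comparisons of a gene and cohort with +dox was called by edgeR, and none reached an unadjusted p below 0.05. DESeq2 called none either, with 2 of 20 at an unadjusted p below 0.05. The log2 fold changes ranged from -1.39 to 1.08 and the adjusted p from 0.310 to 0.987. Of all genes, 3.47% were called higher and 4.13% lower in -dox ventricle, and 3.09% and 3.52% in +/-dox ventricle. These shares were 1.14% and 1.51% in MBNL1, 0.77% and 0.749% in MBNL2, and 1.04% and 1.61% in MBNL1+MBNL2 ventricle. At such shares, the lack of calls does not set these genes apart. Against +/-dox none of 16 was called by edgeR, with 1 at an unadjusted p below 0.05, where 0.0312% of all genes were called in -dox, 0.868% in MBNL1, 1.57% in MBNL2 and 0.53% in MBNL1+MBNL2 mice. That one was Dkk3 in MBNL2 mice, with a log2 fold change of 1.50 (SE 0.62, edgeR adjusted p = 0.181), and DESeq2 called it (log2 fold change 1.51, adjusted p = 0.0391). The spread between ventricular libraries was wide, so moderate differences could not be detected for these genes, and for Hamp the depth of 5 to 28 counts limited it too.

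Ventricular Dkk3 stood at 6.08, 13.0 and 2.80 TPM in +dox, 1.15, 8.33 and 8.11 TPM in -dox, 5.41, 4.15 and 5.51 TPM in +/-dox, 1.87, 3.59 and 9.27 TPM in MBNL1, 23.7, 3.56 and 20.6 TPM in MBNL2 and 3.30, 7.88 and 10.3 TPM in MBNL1+MBNL2 libraries. Ventricular Cilp2 stood at 0.24, 0.90 and 0.08 TPM in +dox, 0.07, 0.65 and 0.59 TPM in -dox, 0.45, 0.21 and 0.62 TPM in +/-dox, 0.06, 0.12 and 0.35 TPM in MBNL1, 1.47, 0.10 and 1.53 TPM in MBNL2 and 0.19, 0.49 and 0.59 TPM in MBNL1+MBNL2 libraries. The same libraries were high for both genes, above all MBNL2 replicates 1 and 3 and +dox replicate 2, while -dox replicate 1 and MBNL1 replicate 1 were low for both. The last is the library with fewer genes detected, and without it the log2 fold change of MBNL1 against +dox went from -0.71 to -0.34 for Dkk3 and from -1.39 to -0.997 for Cilp2, with no call in either case. Within library names that begin with 53 the log2 ratio of MBNL1 to +dox was -1.86 for Dkk3 and -2.73 for Cilp2. With 1 library on each side within those that begin with 56, it was 1.67 and 2.14, in the other direction. Every cohort overlapped its neighbour in the order of means for both genes. Ventricular Bmp10 was highest in -dox replicate 3 (2.73 TPM) and lowest in -dox replicate 1 (0.45 TPM), so that 1 cohort held both ends of its range. Its cohort means ran from 0.90 ± 0.29 TPM in MBNL2 to 1.58 ± 0.65 TPM in MBNL1+MBNL2 mice, each overlapping the next. Ventricular Hamp ran from 0.67 ± 0.20 TPM in +/-dox to 1.75 ± 1.02 TPM in MBNL2 mice, again with each cohort overlapping the next.

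Levels of atrial markers moved with Dkk3 and Cilp2 between the ventricular libraries. Over the 18 libraries, with deviations from cohort means, the mean log2 CPM of the 6 atrial markers went with Dkk3 at Pearson r = 0.94 (permutation p = 0.00014, adjusted p = 0.00056) and Spearman rho = 0.90 (permutation p = 0.00017, adjusted p = 0.00068). For Cilp2 the values were r = 0.91 (permutation p = 0.00028, adjusted p = 0.00056) and rho = 0.89 (permutation p = 0.00041, adjusted p = 0.00082). For Hamp they were r = 0.56 (permutation p = 0.106, adjusted p = 0.141) and rho = 0.47 (permutation p = 0.146, adjusted p = 0.195), and for Bmp10 r = 0.07 (permutation p = 0.893, adjusted p = 0.893) and rho = -0.07 (permutation p = 0.841, adjusted p = 0.841). The 4 relations formed the family for adjustment, tests were two-sided, and libraries were permuted within cohorts. The 4 genes were chosen for their chamber difference in these same libraries, and the markers are also high in atria. These p values therefore do not show a relation particular to Dkk3 or Cilp2.

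Without the 2 libraries farthest from the median of the markers, r was 0.92 for Dkk3, 0.89 for Cilp2, 0.45 for Hamp and -0.22 for Bmp10. Within the 10 ventricular libraries whose names begin with 53, r of the levels was 0.85 for Dkk3 and 0.92 for Cilp2, and within the 8 that begin with 56 it was 0.88 and 0.96. For Hamp these values were 0.34 and 0.71, and for Bmp10 -0.09 and 0.11. By single marker, r with Dkk3 was 0.89 for Myl7, 0.89 for Myl4, 0.86 for Sln, 0.68 for Nppa, 0.05 for Nr2f2 and -0.43 for Kcnj3, so 4 of the 6 markers carried the relation.

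Set against its own atrial mean, ventricular Myl7 (atrial myosin light chain) was at 0.075% to 2.08%, Cilp2 at 0.106% to 2.71%, Dkk3 at 0.23% to 4.73%, Hamp at 0.12% to 0.759% and Bmp10 at 0.0881% to 0.535%. In the library with the most Myl7, MBNL2 replicate 3, Myl7 was at 2.08%, Cilp2 at 2.71%, Dkk3 at 4.11%, Hamp at 0.745% and Bmp10 at 0.155%. In -dox replicate 2, with Myl7 at 2.04%, Cilp2 was at 1.15%, Dkk3 at 1.66%, Hamp at 0.395% and Bmp10 at 0.112%. Bmp10 and Hamp thus stayed below 1% of their atrial level in every ventricular library, also where Myl7 passed 2%. The summed level of atrial markers ranged from 158 to 492 TPM in +dox, 128 to 1040 TPM in -dox, 372 to 688 TPM in +/-dox, 161 to 270 TPM in MBNL1, 290 to 903 TPM in MBNL2 and 229 to 713 TPM in MBNL1+MBNL2 ventricle. Its part in the ventricular differences of Dkk3 and Cilp2 was not tested.

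**Figure D5:**
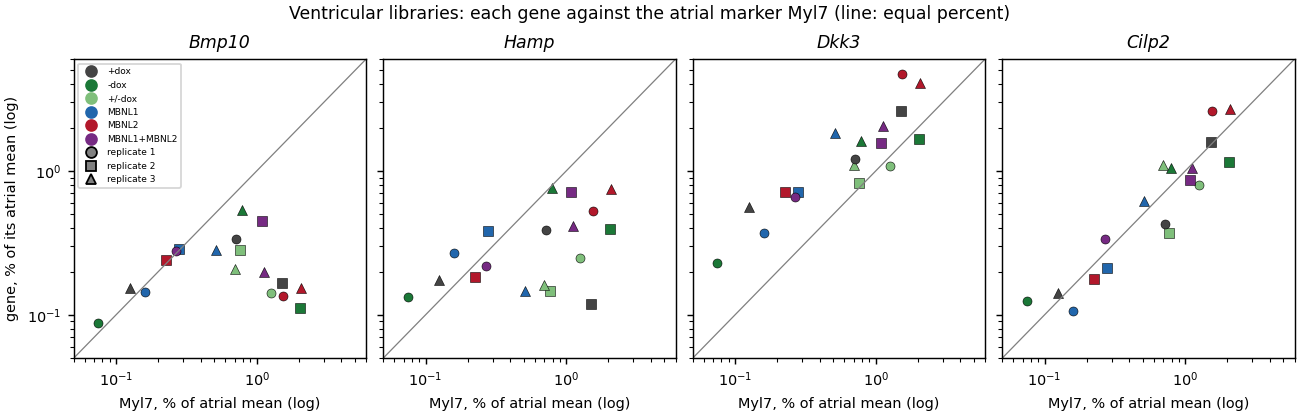
Each gene in the 18 ventricular libraries as a percentage of its atrial mean, against the same percentage for the atrial marker Myl7, both on log axes, with colour for cohort, shape for replicate number and a line where the 2 are equal. Dkk3 and Cilp2 climb with Myl7, while Bmp10 stays at 0.535% or less across the Myl7 range of 0.075% to 2.08%.

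The change against +dox was also compared between the chambers as an interaction, as the atrial minus the ventricular log2 fold change. None of the 20 tests of a gene and cohort was called by edgeR and none had an unadjusted p below 0.05, nor was any called or below that p with DESeq2. The differences ranged from -1.29 to 1.63 with adjusted p from 0.647 upward. Both chambers came from the same mice, and that fit had no term for the mouse. The labels do not say which replicate numbers belong to 1 mouse. With equal numbers in a cohort taken as 1 mouse and the mouse as a term, a fit chosen after seeing the data, none of 20 was called and none had an unadjusted p below 0.05 (edgeR adjusted p from 0.547 upward). Of all genes, 0.764% were called for -dox, 0.489% for +/-dox, 0.0312% for MBNL1, 0.0364% for MBNL2 and 0.0728% for MBNL1+MBNL2. For Hamp the SE of the difference was between 0.72 and 0.91, so the atrial change was not shown to be absent from ventricle.

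The 4 genes did not vary as 1 group. Over the 18 atrial libraries, log2 CPM of Hamp and Dkk3 had r = 0.63, Hamp and Cilp2 r = -0.62 and Dkk3 and Cilp2 r = -0.63, and Bmp10 lay between r = -0.21 and 0.17 with the others. With deviations from cohort means the first 3 values became 0.32, -0.43 and -0.31, so much of the relation lay between cohorts. In ventricle Dkk3 and Cilp2 had r = 0.94 (0.98 in deviations). These values are descriptions over libraries that share cohorts and depth.

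The genes most like each of the 4 were sought over the 18 atrial libraries among 13194 genes by Pearson r of log2 CPM. For Hamp they were Sytl2 (r = 0.93), a synaptotagmin-like protein of vesicle traffic, Lepr (0.91), the leptin receptor, and Mybphl (0.90), a myosin-binding protein of atrial muscle. For Cilp2 they were Orai3 (0.93), a calcium channel, Abhd17a (0.92), a depalmitoylating enzyme, and Nfix (0.90), a transcription factor. For Dkk3 they were Ldhd (0.83), Idh3g (0.83) and Scin (0.83), and for Bmp10 Pinx1 (0.79), Nob1 (0.78) and Ap1g1 (0.78). By Spearman rho, 5 of these 12 genes were again among the 3 most like, and by deviations from cohort means none was.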

How the data were processed

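Poly(A)-selected, stranded libraries of left ventricle and atria were sequenced by the authors as paired reads, aligned to mm10 with STAR 2.7.10b and quantified with RSEM 1.3.1, per the methods and the submitters' processing notes. How strand was treated in RSEM was not given in the sources used here. For each gene symbol the authors deposited an expected count, estimated by RSEM and not normalized, with totals of 55031987 to 97091184 in a library. They also deposited TPM, in which the authors' estimates are corrected for transcript length and depth. Each of the 36 libraries was placed in its group by tissue, cohort and replicate in the labels. The replicates are labelled biological, and pairs within a group differed by more than sampling noise (chi-square per gene of at least 9.61).

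Expected counts were rounded to whole numbers and fitted with edgeR 4.0.16 (quasi-likelihood, robust, TMM, filterByExpr, in R 4.3.3) over all 36 libraries with a mean for each of 12 groups. Genes were called at a Benjamini-Hochberg adjusted p below 0.05 over all 19231 genes tested and a fold change of at least 1.5. SEs were derived from the F statistic. DESeq2 1.42.0 and limma 3.58.1 were alternatives, with other normalization, filters, sets of libraries and terms. Per the study's sample list both chambers came from the same mice, but the labels do not tie replicate numbers to mice. In the added fit with a mouse term, equal numbers in a cohort were taken as 1 mouse. As a hint from the data, 17 of 18 ventricular libraries correlated best with the same-numbered atrial library of their cohort. The code was tested on simulated data. Each library was left out in turn. CPM are counts scaled to the TMM-adjusted library size, and log2 CPM used a prior count of 2. The atrial marker relation used 100000 permutations within cohorts. Positions came from GENCODE M21 on GRCm38 (mm10).

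The members and lists were chosen with earlier results of these data known. Genes named are the 4 members, list genes called against +dox in a chamber (at most the 6 largest of a list), the 3 genes most like each member, and, chosen after their values were seen, list genes called against +/-dox, Slc40a1, Hjv, Id1, Tbx20, Cilp, Gdf2, the other Dickkopf genes, Nppa, Myl7 and Xist.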

Additional observations from a re-analysis of the deposited data

How the results depend on the processing

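Against +dox in the atria, 2 results were called among 20 (Hamp in -dox and +/-dox). No call was left with no filter on low counts, with DESeq2 or with limma-trend on log2(TPM + 1) or log2(TPM + 0.1), that is 0 in each, and 1 was left with only the libraries compared. Leaving out single libraries gave 0 to 2. Against +/-dox in the atria, where 2 were called among 16 (Hamp in MBNL2 and MBNL1+MBNL2), only the libraries compared gave 0, DESeq2 gave 1, limma-trend on log2(TPM + 1) gave 1 and on log2(TPM + 0.1) gave 0, and leaving out single libraries gave 0 to 2. In ventricle against +/-dox, 0 were called and DESeq2 called 1. The ventricular count against +dox and the count of chamber differences were 0 under every alternative run. RLE size factors, the leading digits of the library name as a term, and adjusted p alone changed no count of calls by over 1.5 times. Within a chamber, same-numbered libraries did not pair, with correlations of deviations from -0.12 to 0.29 and no comparison of 18 with all pairs above 0.1. The replicate block left 2 calls against +dox in the atria, with Hamp at 0.82 (-dox) and 0.97 (+/-dox), and 2 against +/-dox. For the chamber difference, a replicate block in which equal numbers of a cohort stood for 1 mouse, chosen after seeing the data, gave 0 calls, as without it (same-numbered correlations of 0.041 to 0.257).

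Among fold changes of at least 1.5-fold, 19 in all, 317 alternative values were computed, and 2 of them turned in direction. Without ventricle +dox replicate 2, Cilp2 in MBNL1 ventricle went from -1.39 to 0.014 and Dkk3 from -0.71 to 0.068. Leaving out single libraries gave -2.29 to 0.014 for Cilp2 and -1.46 to 0.068 for Dkk3. Neither was called. The causes were not tested. Groups of 3 libraries and, in ventricle, 5 to 28 counts of Hamp limit what could be detected.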
